A study of Mus musculus with 6 samples.

Results

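The 37 genes described here are interferon-stimulated genes of splenic Treg cells, the regulatory T cells, which depend on the transcription factor Foxp3 and keep other lymphocytes in check. They were taken from a list of gene names that was chosen with earlier results of these data known. Of the list, 37 of 37 were found among the 14098 genes of the deposited count table. The list holds the IFIT proteins Ifit1, Ifit3 and Ifit3b, the ubiquitin-like modifier Isg15 with its enzymes Usp18 and Herc6, and the signalling factors Irf7, Irf9 and Stat2. It further holds the RNA sensors Ddx58, Ifih1 and Dhx58, the antiviral effectors Rsad2, Oasl2, Zbp1, Mx1, Bst2, Isg20, Samd9l, Xaf1 and Rtp4, and the Schlafen genes Slfn1, Slfn2, Slfn5 and Slfn8. The remaining members are the interferon-inducible GTPases Ifi47, Igtp, Irgm1, Gbp2 and Gbp7, the chemokine Cxcl10, the secreted protein Lgals3bp, and Ifi27l2a, Ifi203, Ifi35, Parp14 and Trim30a. Of the 37, 36 had at least 100 unique molecular identifiers (UMIs, the tags that count single RNA molecules), and Mx1 had 53.

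EGFP-positive cells were sorted from spleens of C57BL/6 mice, 18 to 21 weeks old, that had received tamoxifen, and were profiled by droplet-based 3′ single-cell RNA sequencing. There were 3 samples of Bach2fl/fl Foxp3EGFP-Cre-ERT2 genotype (conditional knockout) and 3 of Bach2+/+ Foxp3EGFP-Cre-ERT2 genotype (wild type), so each group carried the tamoxifen-inducible Cre, which the Foxp3 locus drives only in Foxp3-expressing cells. The series compared Treg cells with and without Bach2, a transcriptional repressor of lymphocytes. The suffix of the cell barcodes divides the table into 6 sets, each of 1641 to 1902 cells and 3998172 to 4786590 UMIs, and no column name ties a set to a sample, so the genotypes were not compared and values are given per set. A total of 63 barcodes occurred in more than 1 set, on 126 cells, and 0 of the interferon-responding cells defined below carried one.

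Type I interferons bind the receptor made of Ifnar1 and Ifnar2, whose kinases Jak1 and Tyk2 phosphorylate STAT proteins such as Stat2. With Irf9 these form the factor ISGF3, which binds the interferon-stimulated response element (ISRE) in promoters. Interferon gamma acts through the gamma-activated site (GAS) and is the usual inducer of the large GTPase genes, although many genes answer to both kinds of interferon. The products block viral RNA and protein synthesis, sense foreign nucleic acid or, like Usp18, restrain the interferon signal itself.

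RefSeq promoter windows, from 250 before to 50 after a gene's start (GRCm38.p6, the patch release of the mm10 build), were matched for 30 of the 37 genes and searched on both strands for the ISRE letters, GAAA and GAAA again with any 2 bases between, and the GAS letters TTCNNNGAA. The ISRE letters were present in 18 of the 30 genes (60%), against 3.99% of all 27025 genes with such a window and 3.44% of all 32851 windows. Among genes at least 8-fold higher in interferon-responding cells, as measured below, 6 of 8 had them, among those 4- to 8-fold higher 9 of 12, and among those under 4-fold 3 of 10. The GAS letters were found in 5 of 30 genes (16.7%), against 9.55% of all genes and 8.3% of windows, with 0 of 8, 2 of 12 and 3 of 10 in the same groups. In Bst2 a GAS match and an ISRE match overlapped. The 200 bases before the start follow for the 3 genes of highest ratio with a window, Ifit3 (chr19:34583329-34583528, plus strand), Ifit3b (chr19:34607757-34607956, plus strand) and Rsad2 (chr12:26456453-26456652, minus strand). Isg15 (chr4:156200819-156201018, minus strand) was added after the search for its 3 overlapping matches, and Slfn2 (chr11:83064912-83065111, plus strand) is shown because its ratio was among the 2 nearest to 1. Each runs 5′ to 3′ on the gene's strand, with ISRE matches of either strand in capitals.
Ifit3: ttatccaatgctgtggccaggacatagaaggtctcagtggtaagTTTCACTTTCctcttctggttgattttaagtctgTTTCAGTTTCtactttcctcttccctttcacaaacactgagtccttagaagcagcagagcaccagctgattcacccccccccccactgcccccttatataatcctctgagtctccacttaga
Ifit3b: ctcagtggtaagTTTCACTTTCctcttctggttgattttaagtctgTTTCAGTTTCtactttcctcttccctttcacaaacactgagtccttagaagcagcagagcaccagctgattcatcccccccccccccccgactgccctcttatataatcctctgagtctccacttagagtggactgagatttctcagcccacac
Rsad2: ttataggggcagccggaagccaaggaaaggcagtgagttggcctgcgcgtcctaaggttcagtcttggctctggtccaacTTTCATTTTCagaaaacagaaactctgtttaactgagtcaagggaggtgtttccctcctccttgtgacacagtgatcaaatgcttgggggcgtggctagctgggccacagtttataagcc
Isg15: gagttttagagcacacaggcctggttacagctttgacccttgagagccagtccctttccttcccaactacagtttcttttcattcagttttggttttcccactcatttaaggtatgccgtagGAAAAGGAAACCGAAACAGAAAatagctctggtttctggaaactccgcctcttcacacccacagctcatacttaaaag
Slfn2: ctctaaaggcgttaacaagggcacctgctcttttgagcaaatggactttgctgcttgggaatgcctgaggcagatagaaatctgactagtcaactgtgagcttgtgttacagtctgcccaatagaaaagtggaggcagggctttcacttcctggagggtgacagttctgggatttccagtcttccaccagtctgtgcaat
Ifit3 and Ifit3b carry 2 matches each, 34 bases from the first base of one to that of the next, within a stretch of 119 identical bases, and Ifit1, the third IFIT gene of the cluster on chromosome 19, carries 2 matches 19 bases apart. Rsad2 has 1 match and Slfn2 has 0. Irf9, the other gene of low ratio, had 0 matches in either of its 2 windows. A match describes the letters in the window and is not evidence of binding.

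Interferon-responding cells were found from 12 members used as anchors (Ifit1, Ifit3, Ifit3b, Isg15, Usp18, Rsad2, Cxcl10, Mx1, Oasl2, Rtp4, Zbp1 and Irf7). Each of 10246 Treg cells was thinned to 1000 UMIs, 306 shallower cells were left out, and a cell with UMIs of at least 4 different anchors was called responding. This gave 109 cells, or 1.06% (exact Clopper-Pearson 95% interval 0.874% to 1.28%, counting error only). The share was 0.705% in set 1 (13 cells), 0.295% in set 2 (5 cells), 1.79% in set 3 (31 cells), 0.921% in set 4 (16 cells), 1.52% in set 5 (25 cells) and 1.19% in set 6 (19 cells). Set 2 was lowest, with an interval of 0.0957% to 0.686%, and set 3 highest, with 1.22% to 2.53%, so the intervals of these sets do not overlap. Most cells showed few anchors: 7078 had 0, 2409 had 1, 510 had 2 and 140 had 3, and the highest number seen was 9. The number of responding cells follows from the cutoff along this range, and 140 cells lie 1 anchor below it. The highest set also depends on the cutoff. With at least 3 anchors it was set 6, at 3.33%, with set 3 at 3.24%, while set 2 stayed lowest, at 1.30%.

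Responding cells were spread over the Treg clusters, which were drawn without the members and without the other interferon genes of the lists used here. They made up 1.03% of activated-Treg-like cells (51 of 4939), 1.07% of resting-Treg-like cells (29 of 2704) and 1.16% of the cluster left unnamed, whose leading gene was Dnah7a (29 of 2510). The intervals of these 3 shares overlap. Among 93 cycling-like cells 0 were responding, which allows a share of up to 3.89% (the upper end of the same kind of interval). Responding cells had a median of 1997 UMIs, against 2130 in other cells. Treg identity genes summed to 2509 CPM (UMIs per 1000000 UMIs) in responding and 2661 CPM in other cells, and Foxp3 itself stood at 24.97 CPM (6 UMIs) and 21.4 CPM. Of these 7 genes, 3 were higher in responding cells. Tnfrsf18 was higher in 0 of 6 sets, at 387 CPM against 541 CPM, a log2 ratio of -0.48 (-0.79 to -0.19). Among markers of other cell types, 15 myeloid genes summed to 287 CPM (176 to 446 CPM over the sets) against 176 CPM (130 to 221 CPM). Of the 15, 6 were higher in responding cells and 7 were at 0 UMIs, Csf1r, C1qb, S100a9 and Itgam among them. The 15 include Ifitm3, itself an interferon-stimulated gene, which stood at 112 CPM against 6.07 CPM. The 8 B-cell genes summed to 270.5 CPM (89.3 to 440 CPM over the sets) against 304 CPM (275 to 374 CPM), with 2 of them at 0, and the 8 CD8 and NK genes to 29.1 CPM (0 to 89.3 CPM) against 89.7 CPM (74.6 to 122 CPM), with 6 at 0. The 18 cycling genes summed to 703 CPM against 1292 CPM, with 7 at 0. Of the B-cell genes 2 were higher in responding cells, and of the CD8 and NK genes and the cycling genes 0. A gene at 0 UMIs in responding cells may still stand at up to 12.5 CPM there, so these zeros do not show absence. The part of other cell types in the ratios below was not tested.

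Members were compared between responding and other Treg cells by CPM pooled over the sets. For an anchor, cells were called from the other anchors only, and Ifit3 and Ifit3b, which share 14.9% of the 50-base stretches at their 3′ ends, were both left out for either, so no gene helped to choose the cells it was compared in. A gene was called higher at 2-fold or more with the same direction in 6 of 6 sets, after 0.5 UMIs were added per set, and strongly higher at 8-fold or more. By this rule 33 of 36 genes were higher and 10 strongly so, against 4.35% and 0.145% of the 8983 genes with at least 100 UMIs, and 34 of 36 were 2-fold higher in the pooled value alone, against 5.63%. Adding 0.5 UMIs lifts genes without a UMI in the few responding cells of a set, so the direction was also taken from plain CPM: 25 of 36 then met the 2-fold rule, against 0.79% of all genes, and 7 of 36 the 8-fold rule, against 0.0891%. The 8-fold count depends on how cells are chosen: it was 3 with anchors that are no members, where the log2 ratio of Ifit3 was 3.79 (5.56 in the main comparison) and that of Isg15 2.53 (4.09), and 5 without thinning. The median log2 ratio was 2.45 over the 36 members and -0.11 over all genes. The cells were chosen by genes of the same response, so these counts describe which genes go together in single cells. Cells are not replicates, intervals cover counting error only, and no p-value is given.

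**Figure D1:**
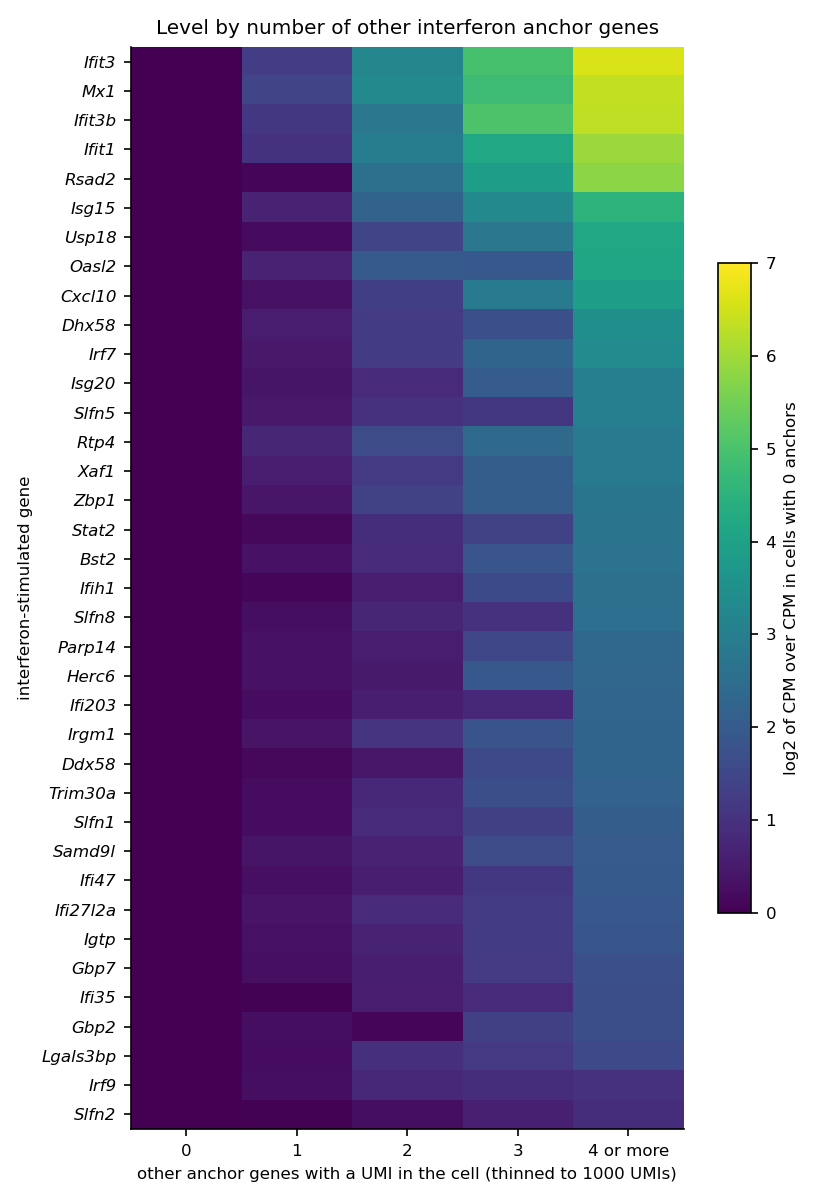
Level of each of the 37 genes (rows) in Treg cells with UMIs of 0, 1, 2, 3 and 4 or more other anchor genes (columns), as the log2 of its CPM over that in cells with 0 anchors. Ifit3 goes from 9.41 to 922 CPM between the first and the last column, and Slfn2 from 407 to 774 CPM.

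Across cells with 0, 1, 2, 3 and 4 or more other anchors, 35 of the 37 genes were higher at each step, the exceptions being Oasl2 and Gbp2, each with 1 step down. The plot of levels by number of anchors shows the size of these steps. The share of all genes that rise in this way was not computed, so the count describes the members only. The genes differed in how much of their RNA lay in the few anchor-rich cells. Ifit3, Ifit3b, Rsad2 and Mx1 had at least 50% of their UMIs in cells with 2 or more other anchors, 6 genes (Ifit1, Isg15, Usp18, Dhx58, Oasl2 and Cxcl10) had 20% to 50%, and the other 27 had 9.44% to 18.7%. Such cells were 5.32% to 7.41% of the cells, depending on the anchors left out. Anchors were counted in thinned cells and the shares from all UMIs, so a cell with 0 anchors can still hold anchor UMIs. Among cells with 0 other anchors, 1.93% had a UMI of Ifit1 after thinning and 4.46% without it. Ifit3, the gene of highest ratio below, had 25.5% of its UMIs in responding cells. The 6.81% of cells with 2 or more other anchors held 54.6% of them, and the 69.9% of cells with 0 held 25.4%. Rsad2 (26.1% in responding cells) and Mx1 (54.9% in cells with 2 or more, from 51 UMIs in the cells scored for anchors) were slightly above Ifit3 in these shares. At the other end, Slfn2 had 1.78% of its UMIs in responding cells, and the 69.1% of cells with 0 anchors held 67.2% of them.

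The IFIT proteins, which bind viral RNA and block its translation, had the highest ratios among the roles. Ifit3 stood at 654, 583, 882, 1515, 594 and 1104 CPM in the responding cells of sets 1 to 6, against 14.2, 11.1, 24.4, 17.4, 19.2 and 31.3 CPM in their other cells. The set 2 value in responding cells came from only 2 UMIs in 2 cells. The ranges do not overlap, and the pooled log2 ratio was 5.56 (5.30 to 5.82). Ifit1 stood at 951, 1317, 1245, 1265, 1265 and 1714 CPM against 36.8, 34.0, 39.2, 27.8, 29.5 and 54.4 CPM, a log2 ratio of 5.13 (4.91 to 5.35). Its level in responding cells varied less over the sets than that of Ifit3, and set 6 was highest in both classes of cells. Ifit3b had 35 UMIs in responding cells, 0 of them in sets 1 and 2, and a log2 ratio of 5.39 (4.797 to 5.94). The 9 and 2 cells that were responding for this gene in those sets allow up to 131 and 874 CPM. In the thinned cells, 45.7% of responding cells had a UMI of Ifit3, against 1.72% of other Treg cells and 2.61% of the cells outside the Treg clusters (B-cell-like and myeloid-like). Without thinning the Treg shares were 65.4% and 3.50%, and no cell type among these cells is known to lack the gene.

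**Figure D2:**
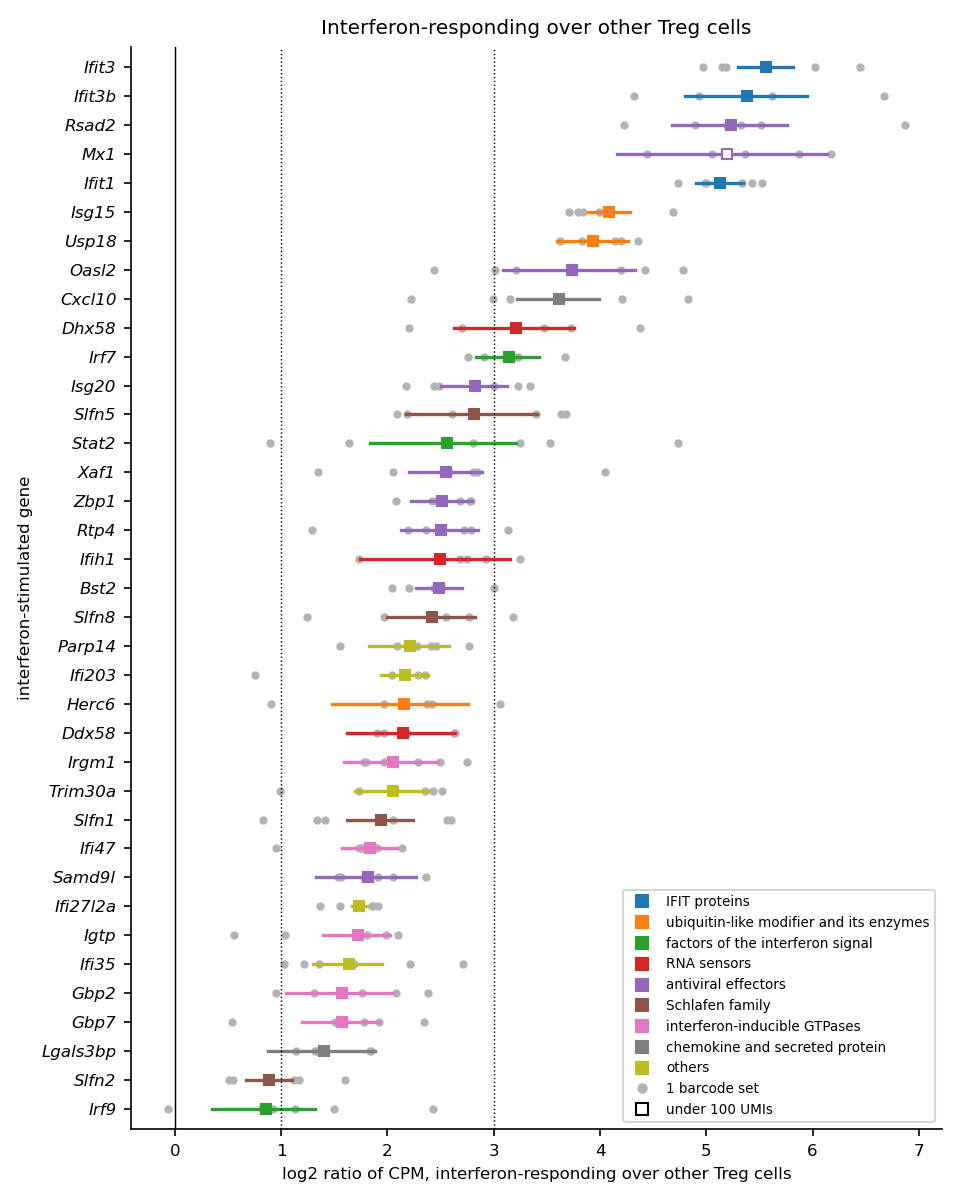
Log2 ratio of CPM in interferon-responding over other Treg cells for the 37 genes, with the pooled value (squares, coloured by role), its 95% counting interval (bars) and the ratio in each barcode set with a UMI in responding cells (grey points, 0.5 UMIs added). The solid line marks equal levels and the dotted lines 2-fold and 8-fold; Irf9 and Slfn2 lie left of the 2-fold line.

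Isg15, a ubiquitin-like protein that is attached to other proteins, and Usp18, the protease that removes it and binds the receptor as an inhibitor, both passed 8-fold. Isg15 stood at 1243, 1035, 1614, 1970, 1410 and 1763 CPM in responding cells of sets 1 to 6 and at 97.6, 79.9, 113, 77.1, 89.8 and 107 CPM in other cells, a log2 ratio of 4.09 (3.89 to 4.28). Usp18 stood at 371, 444, 477, 387, 425 and 376 CPM against 27.2, 28.1, 31.8, 19.4, 24.7 and 31.4 CPM, a log2 ratio of 3.94 (3.60 to 4.26). Of the pair, Usp18 varied less over the sets in responding cells, and neither gene's classes overlapped. Isg15 was also present in cells without other anchors, at 70.3 CPM, and those cells held 50.4% of its UMIs. The cells outside the Treg clusters stood at 51.0 CPM, and the part of free RNA in either level was not tested. Herc6, the ligase that attaches Isg15 in mice, was at 95.7 CPM (23 UMIs) against 21.5 CPM, a log2 ratio of 2.15 (1.48 to 2.75), with 0 UMIs in the 5 responding cells of set 2, which allow up to 308 CPM. Herc6 shares 24.5% of its 3′-end stretches with the gene model Gm45193, so its counts are uncertain.

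The 3 signalling factors differed from each other. Irf7, the factor that amplifies the interferon response, stood at 397, 616, 699, 536, 518 and 453 CPM in responding cells of sets 1 to 6 against 55.8, 52.1, 76.1, 58.8, 60.3 and 69.6 CPM in other cells, a log2 ratio of 3.14 (2.84 to 3.43). Stat2, a component of ISGF3, was at 83.2 CPM (20 UMIs) against 14.1 CPM, a log2 ratio of 2.56 (1.83 to 3.21). Irf9, the DNA-binding component of ISGF3, stood at 147, 411, 77.6, 208, 149 and 201.3 CPM against 84.9, 85.4, 89.3, 79.0, 89.3 and 97.1 CPM. Its classes overlapped, since set 3 was lower in responding cells, and its log2 ratio of 0.86 (0.35 to 1.32) was the lowest of all members. Responding cells held 9741 UMIs of all genes in set 2 and 64411 in set 3, so the Irf9 values there came from few UMIs. The interval of Irf9 lies below those of Irf7 and Stat2.

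The cytosolic RNA sensors, which start interferon production on binding viral RNA, were counted from few UMIs. Ddx58 (RIG-I) stood at 146 CPM (35 UMIs) against 32.8 CPM, a log2 ratio of 2.15 (1.62 to 2.64). Ifih1 (MDA5) stood at 79.1 CPM (19 UMIs) against 14.1 CPM, a ratio of 2.49 (1.74 to 3.16) on the log2 scale. Dhx58 (LGP2), which modulates the other two, stood at 125 CPM (30 UMIs) against 13.5 CPM, 3.21 (2.62 to 3.76) on the log2 scale. Each had 0 UMIs in the 5 responding cells of set 2, so 3 of 3 met the rule with 0.5 UMIs added and 0 of 3 by plain CPM.

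All 8 antiviral effectors with at least 100 UMIs met the 2-fold rule, also by plain CPM, at log2 ratios from 1.82 (Samd9l) to 5.23 (Rsad2). Rsad2 (viperin), an enzyme that makes a chain-terminating nucleotide, stood at 63.1, 205, 132, 238, 172 and 279 CPM in responding cells of sets 1 to 6 and at 4.10, 2.06, 3.71, 5.41, 5.99 and 7.11 CPM in other cells. Set 1 was lowest among the responding cells, and still above the other cells of all sets. All Treg cells of set 1 held only 21 UMIs of Rsad2 and those of set 2 only 10, so the order of the sets rests on few UMIs. Oasl2, of the oligoadenylate synthetase-like family, was at 112 CPM (26 UMIs) against 8.39 CPM, a log2 ratio of 3.73 (3.09 to 4.33). Mx1, a dynamin-like GTPase that is defective in many laboratory strains, had 13 UMIs in responding cells, at 56.7 CPM against 1.55 CPM, a log2 ratio of 5.19 (4.16 to 6.13), and was too sparse for the rule. The exonuclease Isg20 had a log2 ratio of 2.82, the cell death regulator Xaf1 2.55, the nucleic acid sensor Zbp1 2.52, Rtp4 2.50 and the virion tether Bst2 2.49.
Of the UMIs of these 5 genes, 54.3% (Xaf1) to 63.8% (Zbp1) lay in cells without another anchor, against 25.4% (Ifit3) to 33.2% (Ifit1) for the IFIT genes. Bst2 stood at 733, 513, 714, 1102, 874 and 649 CPM in responding cells of sets 1 to 6 and at 132, 123, 133, 139, 157 and 160 CPM in other cells. Its classes did not overlap, while 58.5% of its UMIs lay in cells without an anchor and 5.20% in responding cells.

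The Schlafen genes, a family that acts on T-cell quiescence and on RNA, were spread widely in ratio. Slfn5 stood at 104 CPM (25 UMIs) against 14.8 CPM, a log2 ratio of 2.82 (2.17 to 3.40), Slfn8 at 2.42 (1.996 to 2.82) and Slfn1 at 1.94 (1.62 to 2.24). Slfn8 shares 22.3% of its 3′-end stretches with Slfn10-ps and 13.8% with Slfn9. Slfn2, whose loss disturbs T-cell quiescence in mice, stood at 557, 1129, 605, 953, 930 and 783 CPM in responding cells of sets 1 to 6 against 402, 388, 420, 446, 419 and 431 CPM in other cells. It was higher in 6 of 6 sets and its classes did not overlap, yet its log2 ratio of 0.89 (0.67 to 1.10) missed 2-fold. The 4 genes lie within 1 Mb on chromosome 11, and the interval of Slfn2 lies below those of its 3 neighbours.

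The interferon-inducible GTPases, which attack vacuoles that hold pathogens, had the lowest median among the roles with more than 2 genes tested, 1.72 on the log2 scale. Ifi47 stood at 537 CPM against 150 CPM (log2 ratio 1.84, 1.57 to 2.09), Igtp at 366 CPM against 111 CPM (1.72, 1.40 to 2.03) and Irgm1 at 191 CPM against 46.2 CPM (2.05, 1.59 to 2.48). The guanylate-binding proteins Gbp2 and Gbp7, neighbours on chromosome 3, had a log2 ratio of 1.57 each, with intervals of 1.04 to 2.06 and 1.195 to 1.92. All 5 met the 2-fold rule and 3 of 5 also by plain CPM, since in the responding cells of set 2 Gbp2 had 0 UMIs and Igtp stood at 103 CPM, against 104 CPM in its other cells. More than 60% of the UMIs of Ifi47, Igtp, Gbp2 and Gbp7, and 58.3% of those of Irgm1, lay in cells without an anchor.

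Cxcl10, a chemokine that draws Cxcr3-bearing T cells, stood at 308, 0, 247, 804, 213 and 138 CPM in responding cells of sets 1 to 6 and at 17.5, 17.3, 28.6, 28.8, 28.0 and 32.5 CPM in other cells. Its log2 ratio was 3.62 (3.22 to 3.99), and set 2, where 4 cells were responding for this gene, allows up to 359 CPM. Lgals3bp, a secreted galectin-binding glycoprotein, was at 146 CPM (35 UMIs) against 55.1 CPM, a log2 ratio of 1.40 (0.87 to 1.89), and was not higher in set 2, where it had 0 UMIs in responding cells.

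Ifi27l2a, a small mitochondrial protein gene, was present in most Treg cells. It stood at 6184, 4928, 5993, 8160, 6734 and 6533 CPM in responding cells of sets 1 to 6 and at 1696, 1697, 1662, 2175, 2036 and 2543 CPM in other cells, a log2 ratio of 1.74 (1.66 to 1.81). In the thinned cells, 95.4% of responding and 72.8% of other Treg cells had a UMI of it, and 70.6% of those with 0 anchors did. The cells outside the Treg clusters stood at 1293 CPM, with a UMI in 60.9%, so a part of the share in any class may be RNA free in the droplets, which was not tested. The DNA sensor family gene Ifi203 had a log2 ratio of 2.17 (1.94 to 2.38), the mono-ADP-ribosyltransferase Parp14 2.22 (1.82 to 2.58), the TRIM-family gene Trim30a 2.05 (1.69 to 2.38) and Ifi35 1.63 (1.30 to 1.95). Trim30a shares 19.9% of its 3′-end stretches with Trim30d, and Ifi203 6.30% with Ifi203-ps. Summed over the 24 members that were neither anchors nor Ifi27l2a, responding cells held 6506, 6057, 7514, 8368, 6752 and 6823 CPM in sets 1 to 6 and other cells 1861, 1811, 1991, 2039, 2042 and 2034 CPM.

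No member was near even, that is within 1.5-fold, where 61.1% of all genes were. By the shares above, the genes fell along a range from Ifit3, Ifit3b, Rsad2 and Mx1, whose UMIs lay mostly in anchor-rich cells, to Slfn2, whose UMIs were spread nearly as the cells were. Between them stood genes such as Ifi27l2a, Bst2 and Ifi47, which had most of their UMIs in cells without an anchor after thinning. They were also more than 3-fold higher in responding cells.

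Other genes of the pathway were taken from lists of ligands, receptors, signalling factors, GTPases with antigen presentation genes, and further type I interferon-stimulated genes. Of 68 further interferon-stimulated genes with at least 100 UMIs, 41 met the 2-fold rule (25 by plain CPM) and 0 were lower. The highest were Ifitm3 (log2 ratio 4.21), Cmpk2 (4.08), Parp12 (3.11) and Oas3 (2.84), and the lowest Trim5 (-1.04, 4 UMIs) and Ifi27 (-0.57). Of 25 GTPase and antigen presentation genes, 7 met the rule (6 by plain CPM), led by Iigp1 (2.32), Gm4951 (2.29), Gbp9 (2.06) and Tgtp1 (1.85, higher in 5 sets), while the class I genes H2-K1 (0.23) and H2-Q7 (0.28) were lowest. Among the signalling genes, Irf4 met it from 5 UMIs (1.37) though not by plain CPM, Socs1 stood at 0.74 and Irf2 at 0.64, and the lowest were Ptpn11 (-1.11, interval -3.39 to 0.45, from 3 UMIs) and Mavs (-1.33, -6.64 to 1.17, from 1 UMI). Of 8 receptor and kinase genes 0 met the rule, with Jak2 at 0.79, Ifnar1 at 0.77 (0.11 to 1.36), Ifngr1 at 0.27, Ifnar2 at 0.21, Ifngr2 at -0.07 and Il10rb at -0.37. The one ligand with enough UMIs, Ifng, had 4 UMIs in responding cells (1.597, -0.30 to 2.99). Ranked by ratio among all genes tested, the first 10 were 8 members and 2 genes of the other lists, and the first 100 held 28 members and 34 such genes.

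To see whether cells chosen by other interferon genes show the same members, cells with UMIs of at least 3 of 12 GTPase genes that are no members (Gbp3, Gbp4, Gbp5, Gbp8, Gbp9, Gbp10, Irgm2, Tgtp1, Tgtp2, Iigp1, Gm4951 and Gm12185) were taken, a choice made after the first results were seen. There were 67, or 0.654% of scored cells, and 11 of them were among the 109 responding cells, 10.1% of the latter and 16.4% of the former. By plain CPM, 15 of 36 members met the 2-fold rule in them, against 0.301% of 8973 genes, and the median log2 ratio was 1.41 over members and -0.07 over all genes. Among the GTPases, the log2 ratio was 1.54 for Igtp (1.72 with the type I anchors), 1.91 for Irgm1 (2.05), 1.38 for Gbp2 (1.57), 1.18 for Ifi47 (1.84) and 1.12 for Gbp7 (1.57). Cxcl10 stood at 3.41 against 3.62 and Irf9 at 0.89 against 0.86. The IFIT genes were lower, with Ifit3 at 3.46 against 5.56 and Ifit1 at 3.05 against 5.13, as were Slfn5 (0.39 against 2.82, interval -1.90 to 1.94, from 3 UMIs), Ddx58 (0.27 against 2.15, from 6 UMIs) and Herc6 (0.29 against 2.15, from 4 UMIs). Only Irf9 was higher by GTPase anchors than by type I anchors, by 0.04. The 2 groups of cells share 11 cells and the same sets, and the differences were not tested. Their cutoffs also differ, at least 3 GTPase anchors against at least 4 type I anchors, so the sizes of the ratios are not matched.

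**Figure D3:**
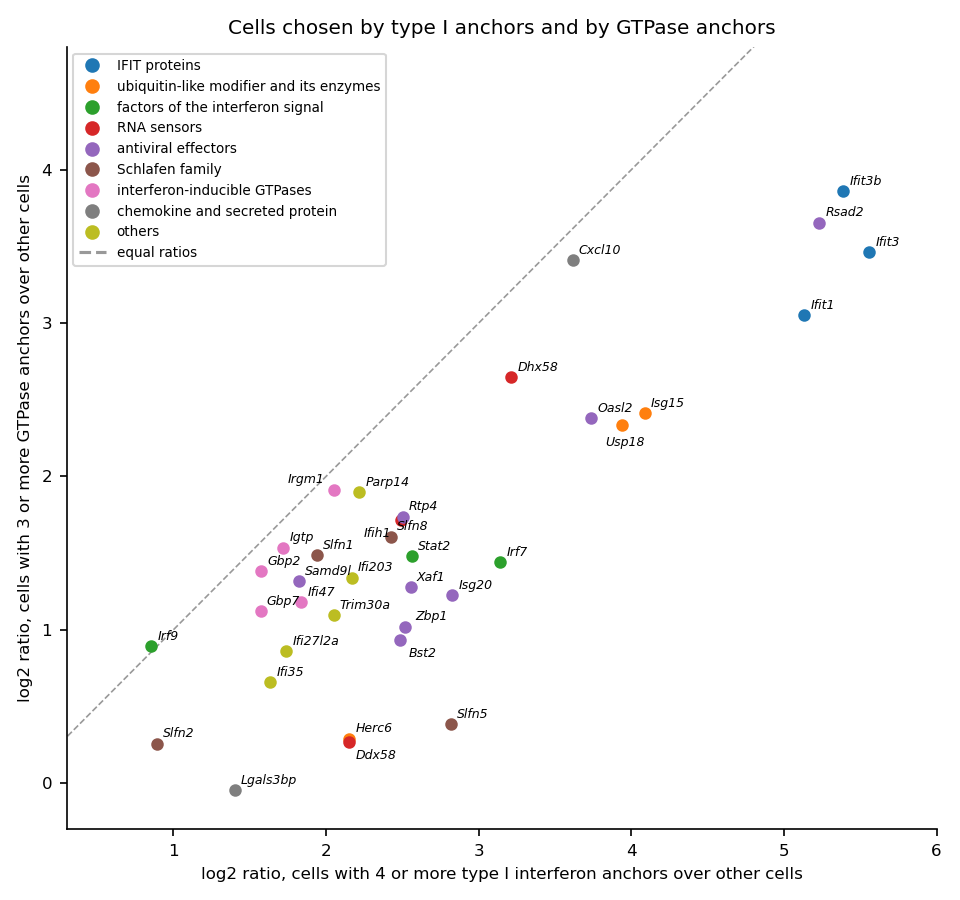
Log2 ratio of CPM over other Treg cells for 36 genes in cells with 4 or more of 12 type I interferon anchors (horizontal axis) and in cells with 3 or more of 12 GTPase genes (vertical axis), coloured by role. Igtp, Irgm1, Gbp2, Cxcl10 and Irf9 lie near the dashed line of equal ratios. Ifit1, Ifit3, Slfn5, Ddx58 and Herc6 lie far below it, with Slfn5, Ddx58 and Herc6 placed on the vertical axis from only 3, 6 and 4 UMIs.

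Between activated-Treg-like cells (5021, in the clusters led by S100a4, Ccl5, Il1r2 and Tmem176a) and resting-Treg-like cells (2774, led by Igfbp4, Ly6c1 and Satb1), few members differed. With a rule of 1.5-fold and the same direction in 6 of 6 sets, 1 of 36 was higher in activated-like cells, against 11.4% of 8439 genes, and 2 of 36 were lower, against 1.65%. The median log2 ratio was -0.0036 over members and 0.24 over all genes. Cxcl10 was the one higher gene, at 44.7 CPM against 6.66 CPM, a log2 ratio of 2.75 (2.33 to 3.20) with a range of 1.87 to 3.63 over the sets. It reached 68.8 CPM in the cluster led by Il1r2 and Cd83, 46.8 CPM in that led by Ccl5 and 11.01 CPM in that led by S100a4, and its log2 ratio was 2.57 without the responding cells. The 2 lower genes were Usp18, at 24.1 CPM against 41.2 CPM (log2 ratio -0.77, -1.01 to -0.54), and Gbp2, at 43.2 CPM against 64.9 CPM (-0.59, -0.77 to -0.40).
Slfn1 was close behind, at -0.57 and lower in 6 of 6 sets. Ifi27l2a (0.54), Ifih1 (0.52) and Slfn2 (0.25) were higher in 6 of 6 sets without reaching 1.5-fold, and Ifi47 (-0.29) and Igtp (-0.37) lower in 6 of 6. Leaving out set 3 raised the count of higher genes to 4 (Ifih1, Rsad2, Slfn8 and Cxcl10), and Gbp2 was not called when set 1, 2, 3 or 6 was left out. Cxcl10 and Usp18 were called whichever set was left out.

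**Figure D4:**
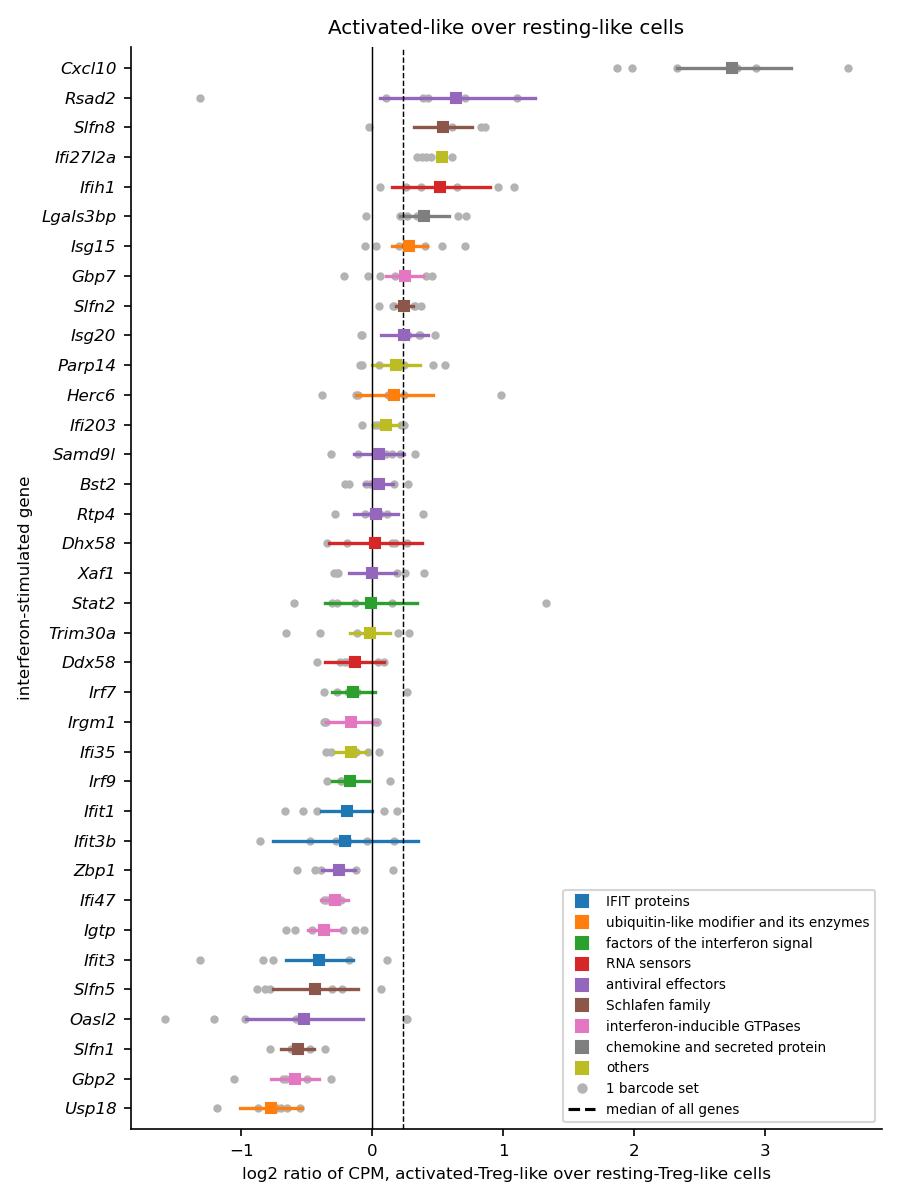
Log2 ratio of CPM in activated-Treg-like over resting-Treg-like cells for the 36 genes with at least 100 UMIs, with the pooled value (squares, by role), its 95% counting interval (bars) and each barcode set (grey points). Cxcl10 stands alone at 2.75, and the dashed line marks the median of all genes, 0.24.

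Levels in all Treg cells were also compared over the 6 sets. Taking a highest set at least 1.5 times the lowest with exact Poisson intervals that do not overlap, 14 of 36 members differed, against 17.1% of 9004 genes. They were Ifit1, Ifit3, Ifit3b, Isg15, Usp18, Irf7, Stat2, Dhx58, Rsad2, Rtp4, Gbp7, Cxcl10, Lgals3bp and Ifi27l2a. The ratio of highest to lowest set ran from 1.12 (Ifi35) to 3.90 (Rsad2), with a median of 1.46.
Rsad2 stood at 4.48, 2.54, 5.51, 7.50, 8.12 and 9.89 CPM in sets 1 to 6, and Ifit3 at 17.3, 11.7, 33.8, 27.1, 25.4 and 41.2 CPM. Both were lowest in set 2 and highest in set 6. Ifit1 stood at 40.1, 36.5, 53.9, 37.0, 40.1 and 64.9 CPM, and Cxcl10 at 19.2, 17.0, 31.4, 35.1, 29.9 and 33.3 CPM, so sets 1 and 2 were the lowest for Cxcl10 while set 4 was highest. Ifi27l2a stood at 1729, 1697, 1725, 2223, 2093 and 2582 CPM, with sets 1 to 3 below sets 4 to 6. Its intervals in the last 3 sets (2178 to 2269, 2048 to 2139 and 2534 to 2632 CPM) all lie above those of the first 3. Slfn2 stood at 403.5, 392, 422, 450.3, 425 and 435 CPM, a ratio of 1.15 between the highest and lowest set.
Set 2 was lowest for 20 of the 36 genes (55.6%), against 21.4% of all genes tested, and set 1 for 10 (27.8%), against 19.97%. Set 6 was highest for 12 (33.3%), against 25.5% of all genes. Set 3 was highest for 10 (27.8%), against 8.60%, and lowest for 0, against 28.4%. These shares are descriptions. With responding cells removed, called for an anchor without the gene itself, 13 of 36 genes met the rule, against 16.9% of 8987 genes. Of the 13, 12 were among the 14, Oasl2 was not, and Isg15 and Irf7 no longer met it. When the same 109 cells were removed for every gene, 10 met it. The ratio of highest to lowest set was 3.47 for Rsad2 and 2.81 for Ifit3, set 6 over set 2 for both. The sets carry no labels, so these differences cannot be told apart from differences of genotype, animal or library.

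**Figure D5:**
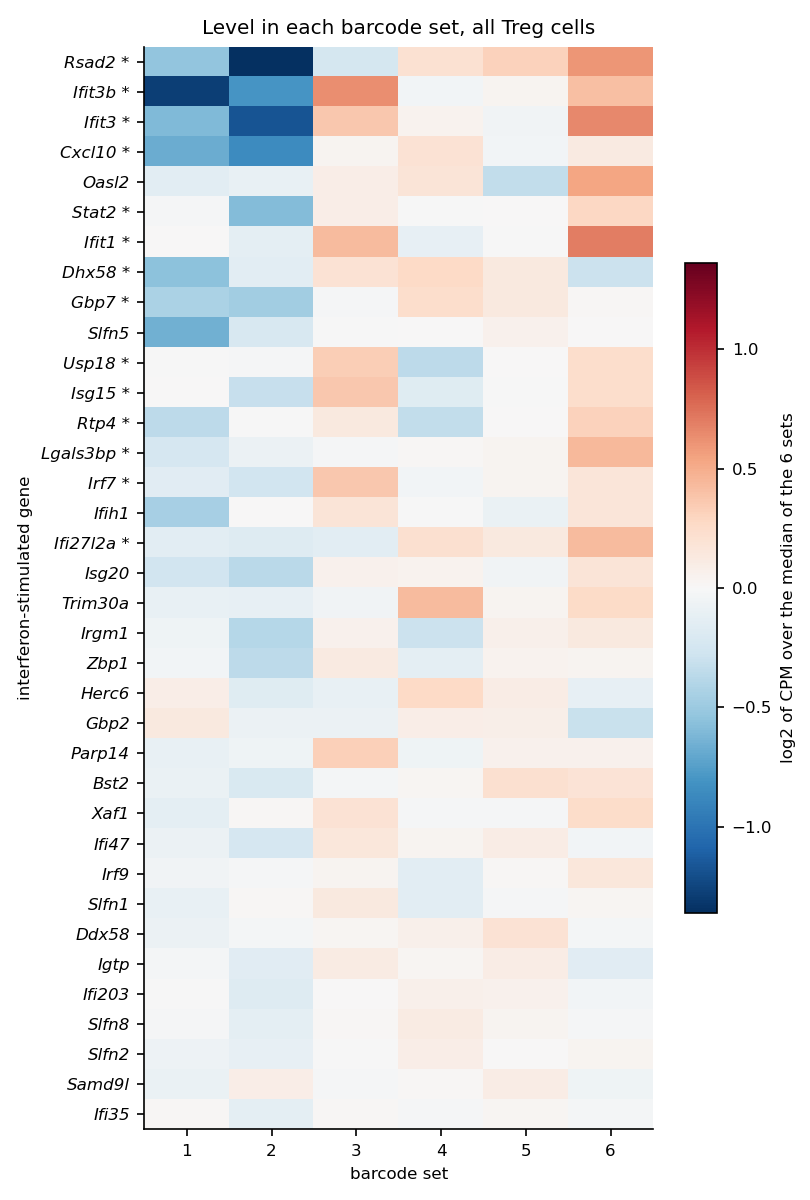
Level of the 36 genes with at least 100 UMIs in all Treg cells of each barcode set, as the log2 of CPM over the median of the 6 sets; an asterisk marks the 14 genes whose highest set is at least 1.5 times the lowest with intervals that do not overlap. Set 2 is lowest for 20 genes and set 6 highest for 12.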

How the data were processed

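The authors deposited raw UMI counts, with a row for each gene and a column for each cell, from 10x Chromium 3′ v2 libraries, per the labels' protocols. The submitters' processing notes name mm10, FastQC, cutadapt, HISAT2, Cell Ranger and Seurat, with no versions or order. A second deposited table of log values was not used here. Cells with at least 200 genes, under 10% mitochondrial and at most 50% globin UMIs were kept (10676 of 10685). Clusters (2000 variable genes without the listed interferon genes, 30 components, 15 neighbours, Leiden resolution 0.8, scanpy 1.11.5) were named from listed markers. B-cell-like (92) and myeloid-like (32) cells were removed, leaving 10552 Treg cells. Cells of the table had 507 to 22130 UMIs (median 2089). No doublet caller was run. Ratios have exact conditional binomial intervals, levels exact Poisson intervals and shares exact Clopper-Pearson intervals, at 95% (scipy 1.17.1), and these cover counting error only. The planned test between genotypes was not run, since no column names a sample. Members, gene lists and rules were chosen with earlier results of these data known. All members are named; of the other lists the 4 highest and 2 lowest genes, and outside them the 10 highest, except items that are not reported here. Plain-CPM direction, GTPase anchors and the rule between sets were added after seeing the data. Positions and 3′ ends are from GENCODE M21. Of 36 member promoter windows, 29 matched an annotated transcript start. Irf9's window overlaps an exon and is not printed. The calculation of ratios was also run on simulated Poisson counts with known folds and fixed classes of cells, which does not test the choice of responding cells.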

Additional observations from a re-analysis of the deposited data

Results flagged for a closer look

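Each member's level over the 6 sets, and the share of responding cells, were checked for a set far from the others, 37 quantities in all. For 3 genes 1 end stood apart by Dixon's criterion for 6 values, and chance alone does so for about 5% of quantities. Lgals3bp was highest in set 6, at 73.8 CPM, with 55.5 CPM in the next set. Ifi35 was lowest in set 2, at 103 CPM, with 111 CPM in the next, a small step in a gene whose sets differed by 1.12 times in all. Parp14 was highest in set 3, at 69.8 CPM, with 58.3 CPM in the next.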

How the results depend on the processing

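No paired analysis was possible because the cell columns carry no sample or replicate names. The 2-fold count of 33 stayed at 25 to 35, and the plain-CPM count of 25 at 18 to 33, under 27 alternatives; it was 33 without set 2. The 8-fold count of 10 became 3 with anchors that are no members and 5 without thinning, and was 10 to 11 with each set left out. The share of responding cells, 1.06%, is set by its definition: it was 2.43% with at least 3 anchors, 0.576% with at least 5, 2.49% with anchors that are no members, 2.004% after thinning to more UMIs per cell and 3.88% without thinning, and 0.916% to 1.22% with each set left out. All 900 ratios of single genes under alternatives stayed above 1, and 133 left the main interval. These were concentrated in the settings that choose the cells differently. Of 36 genes, 33 left it with anchors that are no members, 30 without thinning and 21 with at least 3 anchors. The intervals of single ratios therefore do not cover the choice of cells. The count of genes higher in activated-like cells, 1, was 3 when the deepest 2% of cells and those with B, myeloid, CD8 or globin UMIs were left out, 2 at resolution 1.2, 3, 2 and 2 from seeds 2, 4 and 5, 2 with interferon genes kept for clustering, and 1 to 4 with each set left out. The count of lower genes, 2, was 5 with totals without ribosomal protein and mitochondrial genes, 5 at resolution 1.2, 1 with interferon genes kept, and 1 to 3 with each set left out. The count over the sets, 14, was 10 to 14 under 5 alternatives. The causes of these shifts were not tested. Depth limits the low genes: set 2 had 5 responding cells with 9741 UMIs, and 8 members had 0 UMIs in the responding cells of some set.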

Other observations

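Outside all interferon lists, the 10 genes with the highest ratio that were higher in 6 of 6 sets in responding cells were led by Pyhin1, of the same family as Ifi203, at 341 CPM against 62.5 CPM (log2 ratio 2.45, 2.11 to 2.77). They went on with Tor1aip2 (1.79), BC147527 (1.596), Slc25a22 (1.55), Zufsp (1.53), 1600014C10Rik (1.48), Mitd1 (1.37), 9930111J21Rik2 (1.37) and Sp1 (1.26), the last from 9 UMIs. The tenth was Cd69, a surface protein that holds lymphocytes in tissue by binding S1pr1, at 270.5 CPM against 117 CPM (1.21, 0.83 to 1.56). The 10 were picked by their values, so these are descriptions.

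When interferon genes were kept for clustering, a cluster of 289 cells (2.71% of kept cells) was led by Ifit3, Ifit1, Ifit3b, Isg15, Usp18, Rsad2, Irf7, Cxcl10, Gm4955 and Oasl2, 9 of them members. It held 92 of the 109 responding cells (84.4%), which were 31.8% of the cluster, along with 63 cells with 3 anchors, 62 with 2, 44 with 1 and 24 with 0.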
